A study of Mus musculus with 9 samples.

Results

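The genes described here are 10 members of the NF-kB system, namely the inhibitors Tnfaip3, Nfkbia and Nfkbie, the subunit genes Nfkb1, Nfkb2, Rela and Relb, the chemokine genes Ccl3 and Ccl4, and the survival gene Birc3. They were taken as all probe sets whose platform annotation names exactly 1 of these symbols. This gave 17 probe sets for 9 genes, out of 18193 genes with a named probe set, and Nfkb1 was not analysed here. Of the 17 probe sets 15 lay above the filter on low values, and 8 genes were tested among 12398. Levels are log2 RMA values, background-corrected and quantile-normalized probe set signals from mouse Affymetrix arrays, so a difference of 1 is a doubling.

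RNA came from Lin-Sca1+cKit+ (LSK) cells, the marrow fraction that holds stem cells and multipotent progenitors, sorted from C57BL/6 mice 8 weeks after transplantation. The groups were GFP-positive LSK cells of mice that had received cells transduced with a retroviral vector for dnMPL, GFP-negative LSK cells of dnMPL mice, and LSK cells of control mice, transplanted with wild-type LSK cells. All recipients were lethally irradiated with 10 Gy, and donor cells were cultured with cytokines before injection. Each group had 3 arrays, each of marrow pooled from 2 to 5 mice, and the labels leave unstated what vector the control donor cells were given, whether pools share mice, or whether equal replicate numbers mark the same mice. P-values therefore measure the spread between these pools. Nothing in the sources used here names a scan date or other batch.

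NF-kB factors are dimers of Rel family proteins that wait in the cytoplasm, bound by IkB inhibitors such as those encoded by Nfkbia and Nfkbie. Cytokines and bacterial products activate the IKK kinases, the inhibitor is degraded, and the dimer enters the nucleus and switches on target genes. Several targets encode the pathway's own brakes, so Nfkbia and Tnfaip3 are read as feedback genes, while Ccl3 and Ccl4 encode chemokines that attract myeloid and lymphoid cells. In blood stem and progenitor cells this pathway responds to inflammation and to the handling of the cells.

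The promoters of the members are shown because feedback genes and other targets are reached through kappa B sites, the DNA motif that NF-kB dimers bind. Sequences from RefSeq (GRCm38.p6), running from 250 bases before to 50 after each annotated start site, were found for 7 of the 10 genes. The kappa B consensus, searched by that name on both strands, was in the windows of Tnfaip3, Nfkbia and Nfkb2, so 3 of 7 genes held it, against 6.55% of 27025 genes and 5.8% of 32851 windows of this length. The 4 windows below are those of the 3 genes with a match, at the start site where Tnfaip3 and Nfkb2 have it closest upstream, and that of Ccl3, which has none. Capitals mark the consensus matches on either strand.
Tnfaip3, chr10:19015361-19015660, minus strand: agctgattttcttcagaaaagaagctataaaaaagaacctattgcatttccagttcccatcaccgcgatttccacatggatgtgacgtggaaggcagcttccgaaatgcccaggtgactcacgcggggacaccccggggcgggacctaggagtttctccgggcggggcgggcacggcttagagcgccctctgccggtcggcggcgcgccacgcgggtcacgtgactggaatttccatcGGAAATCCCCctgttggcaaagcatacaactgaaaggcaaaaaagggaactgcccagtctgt
Nfkbia, chr12:55492598-55492897, minus strand: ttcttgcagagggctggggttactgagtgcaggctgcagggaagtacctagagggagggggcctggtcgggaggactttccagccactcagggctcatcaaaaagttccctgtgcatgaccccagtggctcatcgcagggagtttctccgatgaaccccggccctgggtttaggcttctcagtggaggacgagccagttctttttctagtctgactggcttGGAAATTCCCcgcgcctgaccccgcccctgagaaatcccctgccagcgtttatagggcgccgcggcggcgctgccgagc
Nfkb2, chr19:46304487-46304786, plus strand: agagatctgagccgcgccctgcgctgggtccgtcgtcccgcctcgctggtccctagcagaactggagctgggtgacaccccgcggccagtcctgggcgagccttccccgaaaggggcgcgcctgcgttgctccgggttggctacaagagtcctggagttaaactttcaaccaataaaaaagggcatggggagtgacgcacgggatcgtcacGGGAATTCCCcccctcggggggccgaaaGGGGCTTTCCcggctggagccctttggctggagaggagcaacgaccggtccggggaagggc
Ccl3, chr11:83649329-83649628, minus strand: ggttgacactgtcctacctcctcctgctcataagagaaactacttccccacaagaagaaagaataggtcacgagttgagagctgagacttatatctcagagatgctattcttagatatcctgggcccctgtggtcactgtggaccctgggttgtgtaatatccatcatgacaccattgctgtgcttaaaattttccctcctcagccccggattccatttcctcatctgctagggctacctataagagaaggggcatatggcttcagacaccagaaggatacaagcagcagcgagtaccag
In Tnfaip3 the match lay at bases -12 to -3 from the start site (chr10:19015413-19015422) and in Nfkbia at -29 to -20 (chr12:55492667-55492676), both read on the strand opposite to the gene. Nfkb2 had 2 matches in the window shown, at -39 to -30 and -11 to -2, the first a palindrome found on both strands, and its other windows, which overlap, shared 1 more (chr19:46305705-46305714). The second Tnfaip3 window and those of Ccl3, Nfkbie, Rela and Birc3 held no match. A match describes these letters only.

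The 9 arrays had medians of 4.52 to 4.64. Control 3 and GFP-positive 2 stood apart, weighted 0.364 and 0.369 by limma's array weighting where the others had 0.809 to 2.38, and the gap between the 3' and 5' probe sets of Gapdh, which widens with incomplete transcripts, was 3.87 and 3.22 against 2.47 to 2.89. Of the defining LSK markers 10 of 12 were measured, 9 of them above the filter and Slamf1 below it. Kit stood at 6.38 to 8.18 in GFP-positive cells, 7.92 to 8.22 in GFP-negative cells and 8.08 to 8.73 in controls, and Cd34 at 9.31 to 10.5, 9.65 to 9.84 and 9.66 to 9.92 in the same order of groups. Of the other LSK markers above the filter, Flt3, Cd48, Meis1, Gata2 and Myb overlapped between the groups, and Procr and Hoxa9 separated from control. Procr, the endothelial protein C receptor that marks stem cells, had 6.46, 7.05 and 6.09 in GFP-positive cells, 5.56, 5.93 and 5.43 in GFP-negative cells, and 7.57, 7.85 and 8.69 in controls, a joint difference of -1.95. Hoxa9, a stem cell homeobox gene, stood at 7.95 to 9.32 in GFP-positive cells, 8.90 to 9.42 in GFP-negative cells and 9.51 to 9.70 in controls, a joint difference of -0.61. Both lay below every control on all 6 dnMPL arrays. Of the 9 tested markers 7 were lower in GFP-positive cells than in controls. At an unadjusted p under 0.05 there were 3 of them, against 3.19% of all genes. In GFP-negative cells 6 were lower, 1 of them under that p, against 2.74% of all genes. Jointly in both fractions 6 were lower, 1 of them under that p, against 3.58%. The smallest limma adjusted p of the list for both fractions against control, 0.141, was also the smallest over all genes. The granulocyte markers described below had the same smallest value. The part of these differences in the values of the members was not tested. Ly6a was not analysed here.

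Among the members, Tnfaip3 and Ccl4 lay lower on all 6 dnMPL arrays than on all 3 controls. Ccl3 and, by its brighter probe set, Birc3 lay lower on average, with overlap. The other inhibitor genes, Nfkbia and Nfkbie, and the tested subunit genes differed less or in the other direction. No member passed the threshold. In limma, 0 of the 8 tested members and 0 of 12398 genes (0.0%) had an adjusted p under 0.05 in any comparison. At an unadjusted p under 0.05, 2 of 8 members, Tnfaip3 and Ccl4, were lower in GFP-positive cells than in controls, against 3.19% of all genes, and the same 2 were lower in GFP-negative cells, against 2.74%. Their groups did not overlap in either comparison, against 4.26% of genes that lay lower in GFP-positive cells and 6.47% that lay lower in GFP-negative cells without overlap. Below every control on all 6 dnMPL arrays lay 1.96% of all genes. In bulk samples fewer cells of a type and less RNA per cell cannot be told apart. The members were chosen with earlier results of these arrays known, so these counts are descriptions.

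**Figure D1:**
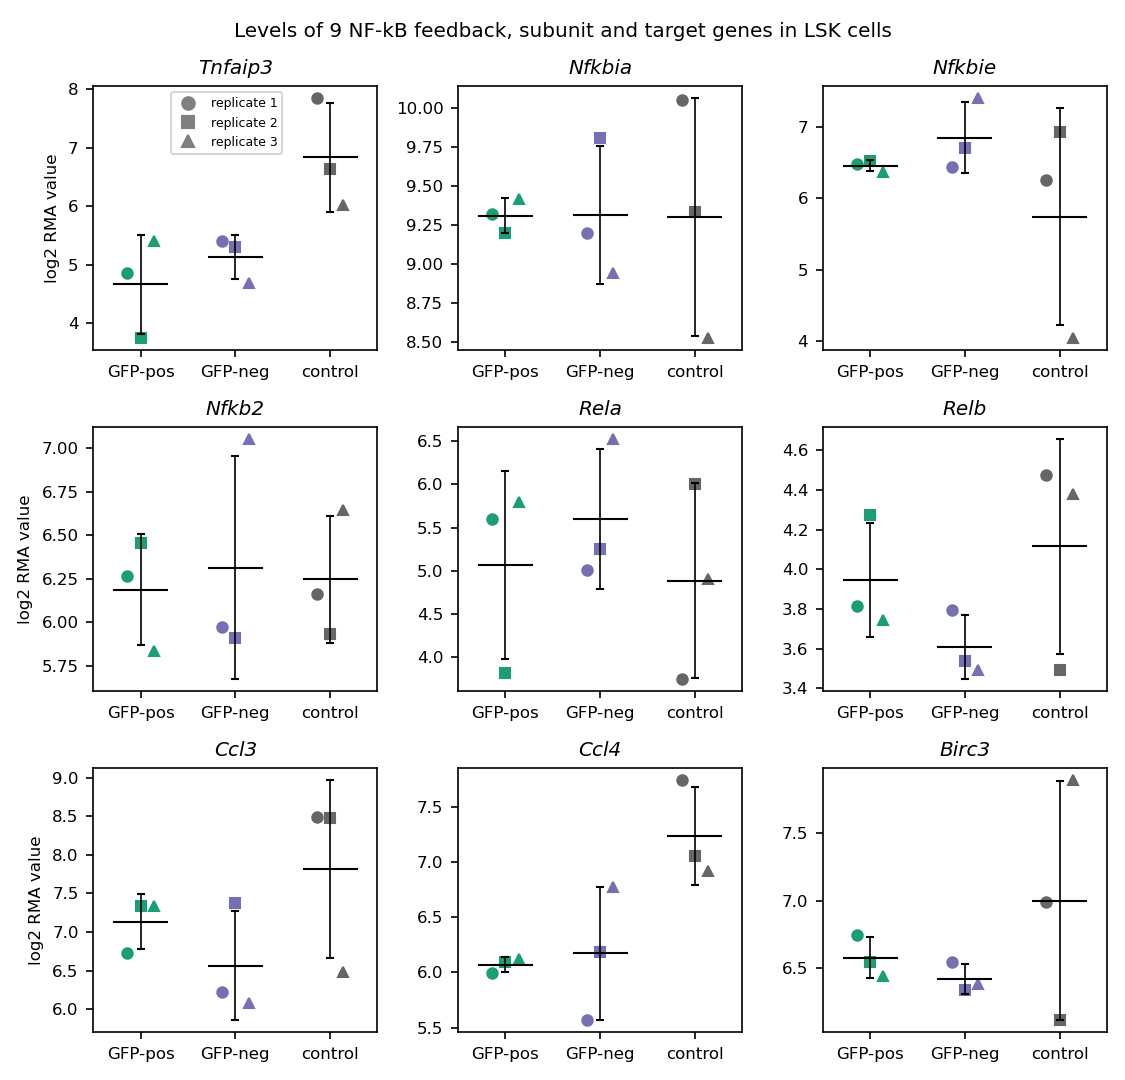
Log2 RMA value (y axis) of the 9 measured genes on each array, by group (x axis), with replicate number as symbol, and mean ± SD (line and bar, n = 3 arrays). Tnfaip3 and Ccl4 lie below all controls on all 6 dnMPL arrays, while the other 7 genes overlap.

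Tnfaip3 encodes A20, a ubiquitin-editing enzyme that shuts off signalling to NF-kB. Its brighter probe set had 4.86, 3.74 and 5.40 on GFP-positive arrays 1 to 3, 5.40, 5.30 and 4.69 on GFP-negative arrays, and 7.85, 6.63 and 6.02 on controls. The highest dnMPL value was thus below the lowest control, and control 1 stood highest of the controls. Group means were 4.67 ± 0.85, 5.13 ± 0.38 and 6.83 ± 0.93 in GFP-positive cells, GFP-negative cells and controls (SD, n = 3 each). The difference was -2.17 ± 0.54 (SE) for GFP-positive cells against control, a ratio of 0.223 (limma adjusted p = 0.487). For GFP-negative cells against control it was -1.70 ± 0.54, a ratio of 0.307 (limma adjusted p = 0.762). With both dnMPL fractions set jointly against control it was -1.93 ± 0.47 (limma adjusted p = 0.355), where the 2 fractions may share mice. With any 1 array left out, the joint difference ran from -2.34 to -1.43. The difference from control then ran from -2.57 to -1.66 in GFP-positive cells and from -2.11 to -1.195 in GFP-negative cells. The value of GFP-positive 2, 3.74, lay below the filter level of 4.03. GFP-positive and GFP-negative cells differed by -0.46 (95% interval -1.68 to 0.75), by -0.000928 without GFP-positive 2 and by -0.83 without GFP-positive 3.

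A second Tnfaip3 probe set was dimmer and did not show this separation. It had 3.79, 3.17 and 3.17 on GFP-positive arrays, 3.17, 2.65 and 2.59 on GFP-negative arrays, and 4.59, 2.55 and 3.14 on controls, and lay below the filter of 4.03. All 3 groups overlapped there. By the mean of both probe sets, Tnfaip3 differed from control by -1.11 in GFP-positive cells and -1.16 in GFP-negative cells.

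Nfkbia encodes IkB alpha, the inhibitor that NF-kB itself induces within minutes. Its brightest probe set had 9.32, 9.19 and 9.42 on GFP-positive arrays, 9.20, 9.81 and 8.94 on GFP-negative arrays, and 10.05, 9.33 and 8.52 on controls. The controls spanned both dnMPL groups. The difference from control was 0.0097 (95% interval -0.89 to 0.91) in GFP-positive cells and 0.015 (-0.89 to 0.92) in GFP-negative cells. These intervals are not adjusted for the number of genes. The controls held both the highest and the lowest value, and without control 3 the differences were -0.38 and -0.37, without control 1 they were 0.38 and 0.39.

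The 5 Nfkbia probe sets did not move as one. One of the dimmer ones stood at 8.23, 6.76 and 7.82 in GFP-positive cells, 8.15, 6.48 and 7.76 in GFP-negative cells, and 7.16, 6.84 and 6.23 in controls, so arrays 1 and 3 of each dnMPL group lay above all controls and array 2 did not. Another stood at 7.93, 8.14 and 8.14 in GFP-positive cells, 7.43, 8.52 and 7.70 in GFP-negative cells and 9.27, 8.36 and 7.22 in controls. The mean differences of the 5 probe sets from control ran from -0.21 to 0.86 in GFP-positive cells and from -0.40 to 0.72 in GFP-negative cells, with 0 of 5 past the threshold in the fit over all 22426 probe sets.

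Nfkbie encodes IkB epsilon, a slower inhibitor of the same family. It had 6.48, 6.52 and 6.37 on GFP-positive arrays, 6.44, 6.70 and 7.41 on GFP-negative arrays, and 6.26, 6.94 and 4.03 on controls. Control 3 alone stood far below the other arrays. The differences from control, 0.71 ± 0.64 in GFP-positive cells (limma adjusted p = 0.938) and 1.11 ± 0.64 in GFP-negative cells (limma adjusted p = 0.906), became -0.14 and 0.25 without control 3, and 1.31 and 1.70 without control 2. The second Nfkbie probe set had 4.95, 6.82 and 5.23 in GFP-positive cells, 5.60, 5.60 and 6.41 in GFP-negative cells, and 5.00, 5.38 and 4.95 in controls. There the GFP-negative arrays lay above all controls, and the GFP-positive arrays overlapped them.

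**Figure D2:**
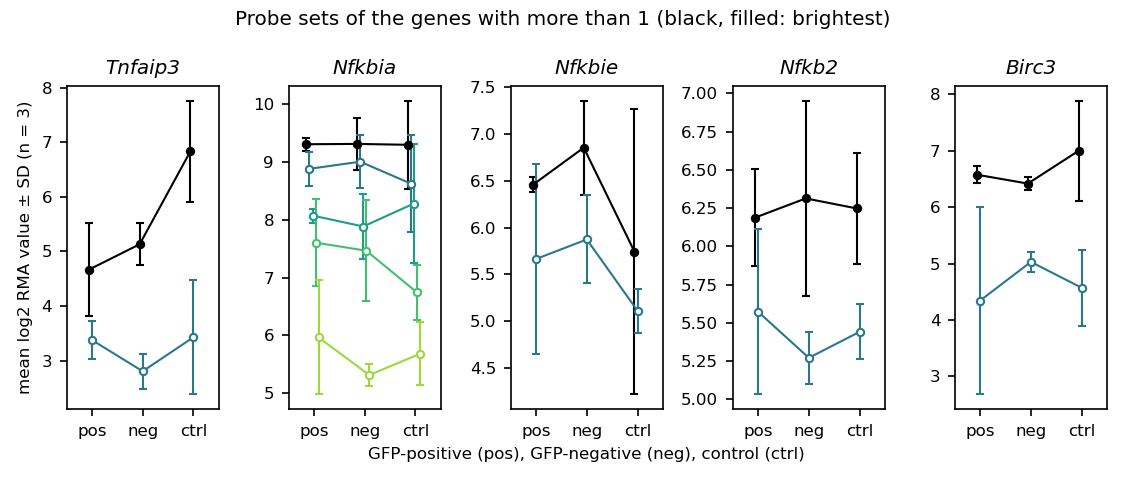
Mean log2 RMA value ± SD (y axis, n = 3 arrays) of every probe set of the 5 genes with more than 1, by group (x axis); filled black points are the brightest probe set, open points the others. The Tnfaip3 groups separate in the brightest probe set and overlap in the other, and the Nfkbia probe sets differ in direction.

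Of the subunit genes, Rela encodes p65, the main activating subunit, Nfkb2 the precursor of p52, and Relb the partner of p52 in the slower, noncanonical branch. Rela had 5.59, 3.82 and 5.80 on GFP-positive arrays, 5.01, 5.26 and 6.53 on GFP-negative arrays, and 3.74, 6.01 and 4.91 on controls. Its values spread by over 2 log2 units within the controls, and the differences of 0.18 ± 0.70 and 0.71 ± 0.70 from control (GFP-positive and GFP-negative cells; limma adjusted p = 0.994 and 0.935) were no larger than that spread. Without control 1 they were -0.39 and 0.14, and without control 2 they were 0.75 and 1.27. Leaving out a GFP-positive array gave -0.078, 0.81 and -0.18 for arrays 1, 2 and 3 in turn, and leaving out GFP-negative 3 gave 0.25 for GFP-negative cells.

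Nfkb2 had 6.27, 6.46 and 5.84 in GFP-positive cells, 5.98, 5.91 and 7.05 in GFP-negative cells, and 6.16, 5.93 and 6.65 in controls. Its differences from control were -0.060 (95% interval -0.90 to 0.78) and 0.065 (-0.78 to 0.91) in GFP-positive and GFP-negative cells. Its dimmer probe set stood at 5.17 to 6.19, 5.09 to 5.42 and 5.31 to 5.65 in GFP-positive cells, GFP-negative cells and controls, with overlap throughout. Relb lay below the filter and was not tested. It had 3.81, 4.28 and 3.75 in GFP-positive cells, 3.79, 3.54 and 3.49 in GFP-negative cells, and 4.47, 3.49 and 4.38 in controls.

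Ccl4 encodes the chemokine MIP-1 beta. It had 6.00, 6.09 and 6.12 on GFP-positive arrays, 5.56, 6.19 and 6.77 on GFP-negative arrays, and 7.74, 7.05 and 6.92 on controls. The GFP-positive arrays lay close together and all below the controls, and of the dnMPL arrays GFP-negative 3 came closest to the controls. Group means were 6.07 ± 0.06, 6.17 ± 0.60 and 7.24 ± 0.44 in GFP-positive cells, GFP-negative cells and controls (SD, n = 3 each). The differences from control were -1.17 ± 0.36 in GFP-positive cells, a ratio of 0.446 (limma adjusted p = 0.609), and -1.06 ± 0.36 in GFP-negative cells, a ratio of 0.479 (limma adjusted p = 0.82). Jointly the 2 fractions differed from control by -1.11 ± 0.31 (limma adjusted p = 0.494). With any 1 array left out, this joint difference ran from -1.27 to -0.86. GFP-positive and GFP-negative cells differed by -0.10 (95% interval -0.91 to 0.70).

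Ccl3, its neighbour in function, encodes MIP-1 alpha, which restrains the cycling of stem and progenitor cells. It had 6.73, 7.34 and 7.34 in GFP-positive cells, 6.22, 7.37 and 6.08 in GFP-negative cells, and 8.49, 8.47 and 6.48 in controls. Controls 1 and 2 stood above all dnMPL arrays, but control 3 lay within them. The difference was -0.68 ± 0.57 in GFP-positive cells (limma adjusted p = 0.927) and -1.26 ± 0.57 in GFP-negative cells (limma adjusted p = 0.876). Without control 3 it was -1.35 and -1.92, and without control 1 it was -0.34 and -0.92, without control 2 -0.35 and -0.93.

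Birc3 encodes cIAP2, a ubiquitin ligase that protects cells from TNF-induced death. It had 6.74, 6.54 and 6.44 in GFP-positive cells, 6.54, 6.33 and 6.38 in GFP-negative cells, and 6.99, 6.12 and 7.89 in controls. The dnMPL arrays lay inside the range of the controls. Differences from control were -0.42 ± 0.41 and -0.58 ± 0.41 in GFP-positive and GFP-negative cells (limma adjusted p = 0.94 and 0.924), but 0.023 and -0.13 when control 3 was left out, and -0.87 and -1.02 when control 2 was left out. Its second probe set had 5.53, 2.44 and 5.06 in GFP-positive cells, with GFP-positive 2 far below, 4.87 to 5.23 in GFP-negative cells, and 4.16 to 5.35 in controls. There the difference from control was -0.23 in GFP-positive cells and 0.46 in GFP-negative cells. The GFP-negative value was opposite in sign to that of the brighter probe set.

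**Figure D3:**
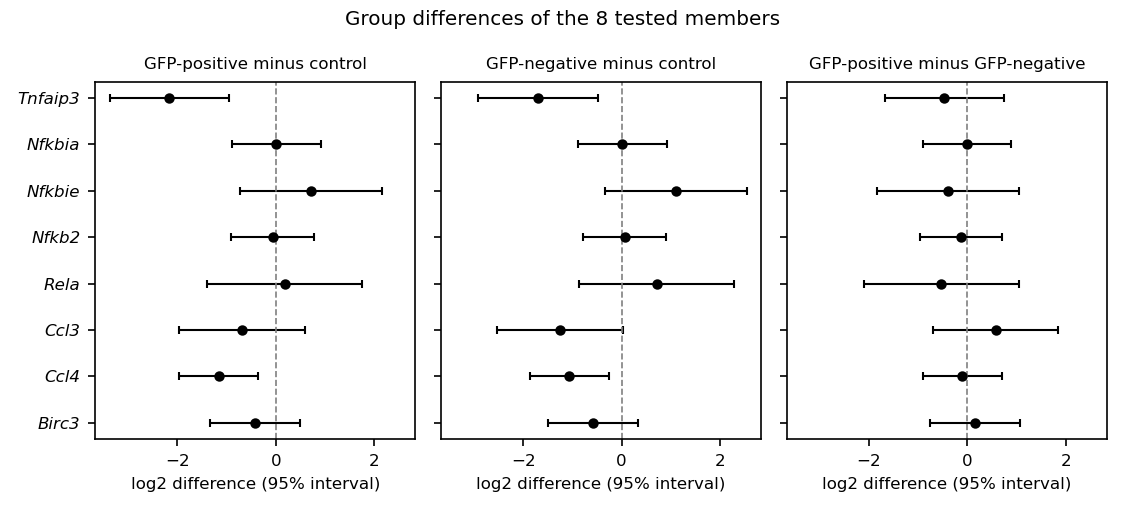
Log2 difference with its 95% interval from limma (x axis) of the 8 tested members (y axis) in 3 comparisons; the dashed line is 0. The intervals, not adjusted for the number of genes, lie below 0 for Tnfaip3 and Ccl4 in both comparisons with control and include 0 for every member between the dnMPL fractions.

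Between GFP-positive and GFP-negative cells, all 8 tested members had overlapping groups, where 6.4% of all genes did not overlap, and 0 of 8 had an unadjusted p under 0.05, against 2.55% of all genes. Their differences ran from -0.53 for Rela to 0.57 for Ccl3 (limma adjusted p = 0.9998 for each). The Rela value was 0.098 without GFP-positive 2 and -0.89 without GFP-positive 3, -0.82 without GFP-negative 1 and -0.064 without GFP-negative 3, and the Ccl3 value was 0.98 without GFP-negative 2 and 0.34 without GFP-negative 3. The median member differed by -0.24 from control in GFP-positive cells and by -0.28 in GFP-negative cells, beside medians of -0.027 and -0.038 over all genes tested. The median was -0.37 in GFP-positive cells when control 1 was left out, and in GFP-negative cells -0.51 when control 2 and -0.43 when GFP-negative 3 was left out. The median deviation of the members from the control mean ran from -0.55 to 0.51 on control arrays. It ran from -0.47 to -0.12 on GFP-positive arrays and from -0.41 to -0.36 on GFP-negative arrays, within the range of the controls. Its SD between arrays of a group, pooled over the groups, was 0.327. That SD is a spread of single arrays and not of the median differences. Of the 8, 5 were lower and 3 higher than control in GFP-positive cells, and 4 lower and 4 higher in GFP-negative cells. The 2 comparisons share the control arrays. Control 3 held the lowest control value for 5 of the 8 members and control 1 the highest for 4.

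Around the members, other pathway genes were examined in 4 lists by role, and 0 passed the threshold in limma in any comparison. Of the receptors and adaptors, 19 of 24 were tested, with 1 higher and 0 lower at an unadjusted p under 0.05 for both fractions against control, where 3.67% of all genes were higher and 3.58% lower. That gene, Tnfrsf1b, the second TNF receptor, stood at 9.24 to 9.79 in GFP-positive cells, 8.80 to 9.95 in GFP-negative cells and 7.72 to 9.09 in controls, a joint difference of 0.94 ± 0.36 (limma adjusted p = 0.615), which was 0.57 without control 3 and 0.42 with its probe sets averaged. The first receptor, Tnfrsf1a, differed by 0.51 ± 0.32, and the adaptor Traf2 by -0.47 ± 0.27 (limma adjusted p = 0.801 and 0.786). The Traf2 value was -0.18 when control 3 was left out and -0.72 when control 1 was left out. Between the fractions, the ubiquitin ligase Traf6 differed by -1.89 ± 0.78, at 4.13 to 7.54 in GFP-positive and 7.40 to 8.34 in GFP-negative cells. It differed by -0.95 without GFP-positive 2 and by -0.12 when its probe sets were averaged. Birc2, the close relative of Birc3, and Traf1 differed by 0.45 ± 0.36 and 0.41 ± 0.42, and by 0.030 and -0.097 without GFP-positive 2.

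Of the kinases and activating complexes, 13 of 16 genes were tested, and 0 were higher and 2 lower at an unadjusted p under 0.05 for both fractions against control, beside 3.67% of all genes higher and 3.58% lower. Tab1, a partner of the kinase TAK1, had 5.54, 4.44 and 5.81 in GFP-positive cells, 5.21, 5.68 and 4.70 in GFP-negative cells, and 5.83, 6.84 and 5.86 in controls, without overlap. Its joint difference was -0.95 ± 0.39 (limma adjusted p = 0.654), -0.61 without control 2 and -0.44 with its probe sets averaged. Ikbkb, the kinase IKK beta that marks IkB proteins for degradation, differed by -0.61 ± 0.27 (limma adjusted p = 0.685) but by 0.011 with its probe sets averaged. Sharpin, of the linear ubiquitin ligase complex, differed by 0.85 ± 0.49, or 0.52 with probe sets averaged. Between the fractions, the adaptor Bcl10 stood at 8.49, 9.03 and 8.08 in GFP-positive cells against 7.39, 7.75 and 7.64 in GFP-negative cells, a difference of 0.94 ± 0.30 (limma adjusted p = 0.9998), or 0.46 with its probe sets averaged. Ikbkg, the scaffold NEMO, and Tab3 differed by 1.07 ± 0.60 and 0.65 ± 0.37, and Ikbkg by 0.68 without GFP-positive 2 and 0.095 with probe sets averaged.

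Of the other subunits and inhibitors, 15 of 16 were tested, with 1 higher and 0 lower at an unadjusted p under 0.05 jointly against control (3.67% and 3.58% of all genes). Itch, a ubiquitin ligase that works with A20, differed by 0.91 ± 0.36 (limma adjusted p = 0.618; 0.21 with its probe sets averaged), N4bp1 by 0.76 ± 0.40 (-0.12 with probe sets averaged) and Irak3, an inhibitor of receptor signalling in myeloid cells, by -0.80 ± 0.53, which was -0.18 without control 1, -1.26 without control 3 and -0.43 with probe sets averaged. Between the fractions Rel, the c-Rel subunit, had 5.70, 3.67 and 7.22 in GFP-positive cells and 7.91, 6.67 and 6.26 in GFP-negative cells, a difference of -1.42 ± 0.82 that was -0.48 leaving out GFP-positive 2, -2.26 leaving out GFP-positive 3 and -0.93 leaving out GFP-negative 1. Tax1bp1, an A20 partner, differed by -0.65 ± 0.30 (-0.14 with probe sets averaged), and Irak3 by 1.03 ± 0.61 (1.61 leaving out GFP-negative 1, 0.67 leaving out GFP-negative 2 and 0.55 with probe sets averaged).

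Of the other target genes, 24 of 34 were tested, with 1 higher and 1 lower at an unadjusted p under 0.05 jointly against control (3.67% and 3.58% of all genes). Vcam1, an adhesion molecule, stood at 5.01 to 5.11 in GFP-positive cells, 4.81 to 6.06 in GFP-negative cells and 3.54 to 4.82 in controls, a difference of 0.91 ± 0.37 (limma adjusted p = 0.637; 0.56 without control 1). Ier3, an early response gene, had 6.67, 7.25 and 7.48 in GFP-positive cells, 7.04, 7.75 and 7.48 in GFP-negative cells, and 8.42, 7.74 and 7.81 in controls, a difference of -0.71 ± 0.29 (limma adjusted p = 0.643). Ccl5, a chemokine of lymphoid cells, differed by 0.54 ± 0.28. Il1b, an inflammatory cytokine, differed between the fractions by 1.34 ± 0.67 (0.77 leaving out GFP-positive 1, 2.11 leaving out GFP-positive 3), Irf1 by 0.61 ± 0.33 (0.37 without GFP-negative 2) and Cxcl10 by -0.98 ± 0.47 (-0.39 without GFP-negative 3). Il1a, Il6, Lta, Cxcl2, Ccl7, Csf2 and Plau lay below the filter by their mean over all arrays. Of these, the chemokine gene Cxcl2 stood at 2.93 to 4.20 in GFP-positive cells, 2.21 to 5.24 in GFP-negative cells and 2.95 to 7.02 in controls, highest on control 1. Plau, which encodes urokinase, had 4.85, 2.33 and 4.49 in GFP-positive cells, 6.53, 2.42 and 6.73 in GFP-negative cells, and 2.06, 2.52 and 2.81 in controls, so array 2 of each dnMPL group lay within the controls and the others above them. The median difference of this list against control, for both fractions jointly, was 0.15, beside -0.033 over all genes tested.

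Markers of other cells and of the immediate early response varied between the groups beside these values. The 12 immediate early genes, which cell isolation can induce, were all measured, 10 above the filter (not Egr2 and Atf3). Their mean level was 7.17 to 7.64 in GFP-positive cells, 7.30 to 7.54 in GFP-negative cells and 7.88 to 8.81 in controls, and control 1, the array with the highest Tnfaip3, Ccl3 and Ccl4 values, was the highest. Of these 10 genes, 10 were lower in both fractions jointly than in controls, 5 at an unadjusted p under 0.05, against 3.58% of all genes. Below the filter, Egr2 stood at 3.54 to 4.36 in GFP-positive cells, 2.79 to 3.82 in GFP-negative cells and 2.70 to 3.34 in controls. Egr2 was thus higher in GFP-positive cells than in controls, without overlap. Atf3 stood at 3.12 to 3.33, 3.16 to 3.55 and 2.84 to 3.86 in the same order, with overlap. Neither was tested. Granulocyte markers (12 of 14 measured) had mean levels of 10.10 to 11.2, 9.23 to 10.7 and 6.69 to 9.11 in GFP-positive cells, GFP-negative cells and controls, and 12 of 12 were higher in both fractions jointly than in controls, 11 at an unadjusted p under 0.05, against 3.67% of all genes. Monocyte and macrophage markers (13 of 13 measured) stood at 5.01 to 6.09, 5.00 to 5.98 and 4.61 to 5.16, with Cd14, Adgre1 and Mrc1 below the filter. Of the 10 tested, 5 were higher and 5 lower in both fractions jointly than in controls. At an unadjusted p under 0.05, 3 were higher and 0 lower, against 3.67% and 3.58% of all genes. Mast cell and basophil markers (9 of 10) stood at 4.99 to 6.21, 4.82 to 5.88 and 4.26 to 4.57, with Fcer1a and Cd200r3 below the filter. Of the 7 tested, 7 were higher jointly, 3 at that p, against 3.67% of all genes. T and NK cell markers (12 of 14) stood at 4.33 to 4.75, 4.42 to 4.60 and 4.01 to 4.27, with Cd3e, Cd3g, Ncr1, Klrd1 and Gzma below the filter, and B cell markers (9 of 10) at 6.04 to 6.52, 4.88 to 5.83 and 3.89 to 5.77, with Ms4a1 below it by its mean over all arrays. Ms4a1, which encodes CD20, stood at 5.93 to 6.38 in GFP-positive cells, 1.56 to 3.98 in GFP-negative cells and 1.35 to 3.81 in controls. The GFP-positive arrays thus lay above all others for Ms4a1, which was not tested. Of the 8 tested B cell markers, 5 were higher and 3 lower in GFP-positive than in GFP-negative cells. At an unadjusted p under 0.05, 1 was higher and 0 lower, against 2.55% of all genes in either direction. The part of any of these in the differences of Tnfaip3, Ccl3 and Ccl4 was not tested.

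The tested genes with the profile closest to that of Tnfaip3 over the 9 arrays, by the root mean square distance of mean-centred log2 values, were Klf6 (0.413), Zfr2 (0.435), Fos (0.453), Smim6 (0.453) and Dcaf4 (0.479), where Tnfaip3 itself varied by 1.12 around its own mean. Klf6 and Fos are transcription factors of the early response, and Fos is on the list of immediate early genes above. Klf6 averaged 9.38 in GFP-positive cells, 9.68 in GFP-negative cells and 10.85 in controls. Closest to Ccl3 were D630004K10Rik (0.349), Enpp4 (0.354), 4930481B07Rik (0.373), Lrrc51 (0.389) and Rbbp9 (0.391), against 0.835 for Ccl3 around its own mean. The 9 arrays of each profile are the same, so this likeness is a description.

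**Figure D4:**
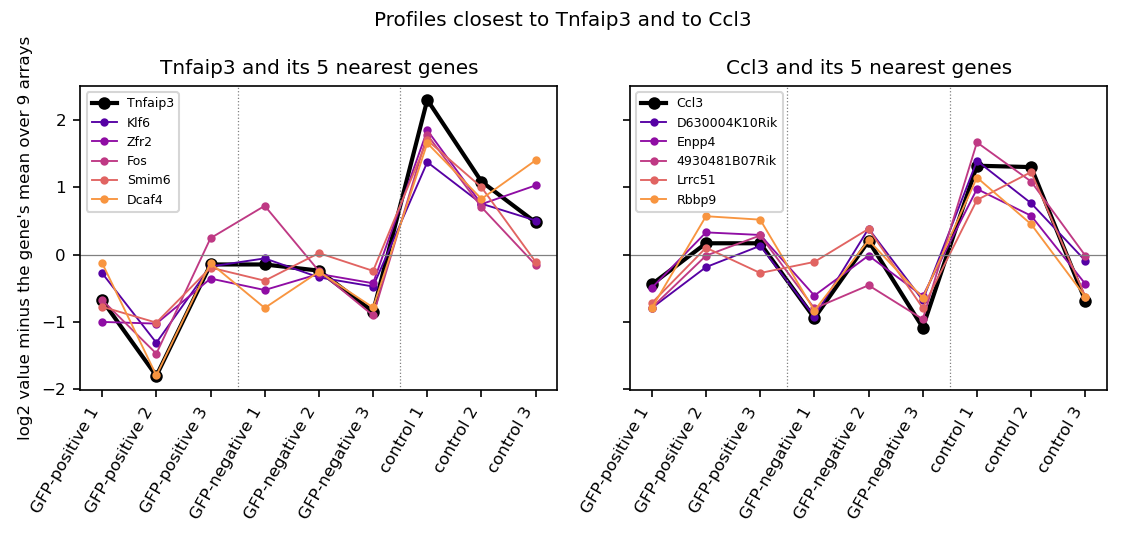
Log2 value minus the gene's mean over the 9 arrays (y axis) on each array (x axis, groups divided by dotted lines) for Tnfaip3 and for Ccl3 (black) with their 5 nearest genes. Tnfaip3 and its neighbours are highest on control 1, and Ccl3 is high on controls 1 and 2 but low on control 3.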

How the data were processed

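RNA of LSK cells from 9 samples, 3 in each of the groups GFP-positive dnMPL, GFP-negative dnMPL and control, was amplified with Nugen kits and measured on Affymetrix arrays with a biotin label, 1 per sample, per the labels' protocols. The authors deposited values on a log2 scale, and the submitters' processing notes name RMA without a version. Values equal in every deposited digit on 2 or more arrays occurred in 6 of the 17 member probe sets.

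Each gene was represented by its brightest probe set over all arrays, and genes above the 40th percentile of probe set means (4.03) were tested. A group-means model over all 9 arrays, by limma 3.58.1 under R 4.3.3, used Benjamini-Hochberg adjustment over all genes and a threshold of 0.05. A second fit took all 22426 named probe sets above the filter. With 3 arrays a side, the smallest two-sided exact permutation p is 0.1, and the number of arrays limits the precision. The gene fit was also run on simulated data with independent arrays and changes set in GFP-positive cells only. That run had no shared mice and no arrays of differing quality, so it cannot show their effect on the fits. The members, lists and tests were chosen with earlier results of these data known. Named were all members and, of each pathway list, the 3 genes with the smallest p in 2 comparisons. These comparisons were both fractions against control, and GFP-positive against GFP-negative cells. Also named were 5 nearest profiles each for Tnfaip3 and Ccl3, and marker genes beside a result. Cxcl2 and Plau, below the filter and not tested, are shown outside this rule. Alternatives changed the filter, probe set choice, variance prior, array weights, normalization, threshold, arrays and replicate block. Promoters came from RefSeq tables, and figures from matplotlib 3.10.9 in Python 3.11.15.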

Additional observations from a re-analysis of the deposited data

How the results depend on the processing

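No alternative brought a member past the threshold, and Tnfaip3 and Ccl4 stayed below control in those of the 19 alternatives that give a difference. With both fractions against control, the limma adjusted p over the alternatives ran from 0.0923 to 0.646 for Tnfaip3 and from 0.162 to 0.762 for Ccl4. Array weights brought 3 genes, none of them a member, past the threshold in that comparison. The stricter filter removed Rela. The replicate block left the log2 differences as they were and 0 members past the threshold, with limma adjusted p of 0.425 for Tnfaip3 and 0.569 for Ccl4 (both fractions against control). Deviations of same-numbered arrays from their group means had correlations from -0.29 to 0.0994, and from -0.0656 to 0.0994 between the dnMPL fractions. Deviations from a mean of 3 arrays depend on one another, so these values cannot show whether arrays share mice. The numbers were not taken as pairs. Of 32 member differences 16 changed sign under some alternative, and the cause was not tested. With probe sets averaged, the sign of the log2 difference turned in GFP-positive cells against control for Nfkb2 (0.0354). It also turned in GFP-negative cells against control for Nfkb2 (-0.0523). It also turned in GFP-positive against GFP-negative cells for Tnfaip3 (0.0539), Nfkbia (0.17), Nfkb2 (0.0878) and Birc3 (-0.26). It also turned in both fractions against control for Nfkb2 (-0.00844), Ikbkb (0.0115) and N4bp1 (-0.12). With array weights, the sign of the log2 difference turned in GFP-positive cells against control for Nfkbia (-0.24) and Nfkb2 (0.0559). It also turned in GFP-negative cells against control for Nfkbia (-0.13). It also turned in both fractions against control for Nfkbia (-0.19). After a further quantile normalization, the sign of the log2 difference turned in GFP-positive cells against control for Nfkbia (-0.0181). It also turned in both fractions against control for Nfkbia (-0.0063) and Nfkb2 (-0.028). Leaving out 1 array, or control 3 and GFP-positive 2 together, gave differences of both signs for some genes, given here as ranges. In GFP-positive cells against control these were Nfkbia (-0.38 to 0.38), Nfkbie (-0.18 to 1.31), Nfkb2 (-0.22 to 0.14), Rela (-0.39 to 0.82) and Birc3 (-0.87 to 0.0387). In GFP-negative cells against control these were Nfkbia (-0.37 to 0.39) and Nfkb2 (-0.30 to 0.27). In GFP-positive against GFP-negative cells these were Nfkbia (-0.19 to 0.24), Nfkb2 (-0.33 to 0.24), Rela (-0.89 to 0.0983), Ccl4 (-0.41 to 0.20) and Traf1 (-0.0966 to 0.79). In both fractions against control these were Nfkbia (-0.38 to 0.39), Nfkb2 (-0.18 to 0.20) and Rela (-0.12 to 1.01).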
